A study of Mus musculus with 4 samples.

Results

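The histone genes examined here were those whose symbol in the deposited gene table begins with Hist1h to Hist4h, H1f, H2af, H2bf, H3f or H4f. The pattern matched 30 of the 55401 genes of the table, and 25 of them had 10 or more reads summed over the 4 libraries. They were 9 genes with a Hist symbol, 13 other matches and 3 pseudogene or antisense entries (*H3f3a-ps1*, *H3f3a-ps2* and *H3f3aos*). The 5 genes under 10 reads were *H1f7*, *H1f8*, *H2bfm*, *H2af-ps* and *H1f11-ps*.

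CD45+ cells, that is leukocytes, were sorted from the dura mater of C57BL/6J male mice. The animals had received 2 µl of an AAV9 vector into the cisterna magna at 4 weeks of age. AAV-mVEGF-C encoded full-length mouse VEGF-C, the growth factor of lymphatic vessels, and AAV-CTRL encoded a soluble part of VEGFR3 (Ig domains 4–7) that does not bind VEGF-C, so both groups carried a vector and a transgene. Each group had 2 libraries, labelled as experiments 1 and 2 and called here AAV-CTRL 1 and 2 and AAV-mVEGF-C 1 and 2, and each library was made from the pooled cells of 10 to 12 mice.

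Histones package DNA. The core histones H2A, H2B, H3 and H4 form the nucleosome, and the linker histone H1 binds where DNA enters and leaves it. Replication-dependent histone genes lie in clusters and are transcribed in S phase. Their mRNAs carry no poly(A) tail and end instead just after a conserved stem-loop bound by SLBP. Replacement histones, such as H3.3 from *H3f3a* and *H3f3b* and the linker histone H1.0 from *H1f0*, are made throughout the cell cycle from polyadenylated mRNAs. Total RNA libraries can capture both kinds, whereas libraries primed on poly(A) tails capture the first kind poorly.

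The symbols of the table did not separate these 2 kinds. By the symbols of the GENCODE M21 annotation, 7 of the 13 other matches were replication-dependent genes under newer names: the linker genes *H1f1* to *H1f5* of the chromosome 13 cluster (Hist1h1a, Hist1h1d, Hist1h1e, Hist1h1c and Hist1h1b in M21, in the order H1f1, H1f3, H1f4, H1f2, H1f5), the testis linker gene *H1f6* (Hist1h1t) and the core gene *H4f16* (Hist4h4). The M21 symbols therefore gave 16 replication-dependent genes and 5 replacement genes (*H3f3a*, *H3f3b*, *H3f3c*, *H1f0* and *H1f10*), and *H3f4* was left unclassified. The table also held 64 histone genes under newer symbols that the pattern did not match, such as *H2ac18* or *H4c12*, and 58 of them had 10 or more reads. Both class definitions are given below.

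The stem-loop was searched for in the annotated transcripts. Transcripts were searched for the left stem arm GGNNCT, the loop TTTN and the right stem arm AGNNCC in direct succession, with all stem bases paired. This form was found in 8 of the 25 genes, all of them among the 16 replication-dependent ones, and in 50 of 55450 genes of M21 (0.0902%), of which 44 had a Hist symbol. For the 25 genes, 5 further bases were required on each side of the stem-loop, which the search of all M21 genes did not require. The hits are printed with the stem-loop in capitals and 5 flanking bases on each side, since the stem-loop is the 3′ end for which the class is known. The replacement gene *H2ax*, which the symbol pattern did not match, also had a hit. Coordinates are those of the stem-loop on GRCm38.
H1f2, chr13:23739512-23739527, plus strand: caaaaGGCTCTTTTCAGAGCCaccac
H1f3, chr13:23555787-23555802, plus strand: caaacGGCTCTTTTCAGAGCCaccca
H1f4, chr13:23621782-23621797, minus strand: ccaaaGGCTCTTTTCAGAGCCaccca
H1f6, chr13:23696525-23696540, plus strand: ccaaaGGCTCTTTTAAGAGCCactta
Hist1h2ao, chr13:21810898-21810913, plus strand: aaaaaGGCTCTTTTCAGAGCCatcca
Hist1h2bp, chr13:21787923-21787938, plus strand: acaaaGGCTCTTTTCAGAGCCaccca
Hist1h4n, chr13:21831798-21831813, minus strand: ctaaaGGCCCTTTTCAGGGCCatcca
H4f16, chr6:136803998-136804013, minus strand: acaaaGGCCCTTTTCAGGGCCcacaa

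The 2 H4 genes shared the stem GGCCCT and the other 6 genes had GGCTCT, and the testis gene *H1f6* differed from the rest in the last loop base. No hit was found in the 5 replacement genes matched by the pattern, nor in the other 8 replication-dependent ones. Several M21 models of cluster genes end at or near the stop codon, so a missing hit there says nothing. The models of *H1f2*, *H1f4* and *H1f3* instead ran on for 840, 1153 and 4884 bases beyond the stem-loop. Whether the deposited TPM values were divided by these lengths is not given in the sources used here.

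The promoters of the linker genes held the elements for which this family is known. RefSeq promoters (GRCm38.p6) were matched for 21 of the 25 genes, and the 250 bases before the start were searched on both strands for CCAAT, for TATAAA or TATATA, which can overlap each other, and for AAACACA, the H1 box. All 5 linker genes of the cluster had a CCAAT and a TATA match and 4 of 5 had an H1 box, against 33.8%, 15.6% and 6.25% of 32851 promoters. Of the 8 core genes with a Hist symbol and a promoter, 6 had CCAAT, 4 had TATA and 0 had an H1 box. The last 120 bases before the start are shown for 4 linker genes, with the matches in capitals, to compare the one without an H1 box, *H1f1*, with the others.
H1f1, chr13:23763548-23763667, plus strand: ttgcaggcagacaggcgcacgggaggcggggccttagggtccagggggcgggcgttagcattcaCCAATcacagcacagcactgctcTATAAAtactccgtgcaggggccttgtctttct
H1f2, chr13:23738687-23738806, plus strand: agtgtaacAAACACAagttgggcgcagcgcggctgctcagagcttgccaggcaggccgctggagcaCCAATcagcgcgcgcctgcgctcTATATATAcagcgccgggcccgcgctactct
H1f4, chr13:23622559-23622678, minus strand: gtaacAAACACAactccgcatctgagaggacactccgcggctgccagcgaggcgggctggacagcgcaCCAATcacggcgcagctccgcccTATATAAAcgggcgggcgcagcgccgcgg
H1f5, chr13:21780626-21780745, minus strand: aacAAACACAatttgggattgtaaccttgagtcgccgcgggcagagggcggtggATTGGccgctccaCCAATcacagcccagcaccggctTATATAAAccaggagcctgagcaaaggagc

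Depth was 46409700, 33336071, 38052048 and 32520709 reads in AAV-CTRL 1 and 2 and AAV-mVEGF-C 1 and 2. AAV-CTRL 1 stood apart: it was the deepest library and yet had reads for 20990 genes, against 29221 to 37512 in the others, and 1444 of the 19806 genes tested were at 0 reads in it, against 26 to 113. The leukocyte markers were present in every library (5 of 5 genes, summing to 3946 to 4434 CPM). The 6 RNA polymerase III and small RNAs, which carry no poly(A) tail, summed to 59763 to 71219 CPM. Values are given below in CPM, the reads of a gene scaled to the same total in every library, for comparisons between libraries, and in deposited TPM, which divides by transcript length, for comparisons between genes.

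Together the 25 histone genes took 0.507% of the reads of the library AAV-CTRL 1 (Wilson 95% interval 0.505 to 0.510) and 0.325% of those of AAV-CTRL 2 (0.323 to 0.327). After AAV-mVEGF-C they took 0.297% (0.295 to 0.299) and 0.337% (0.335 to 0.339). The means were 0.416% ± 0.129 (SD, n = 2) and 0.317% ± 0.0280 (SD, n = 2). AAV-CTRL 1 was high, the other 3 libraries lay close together, and the groups overlapped, since AAV-CTRL 2 lay between the AAV-mVEGF-C libraries. Fewer cells of a type and less RNA per cell cannot be told apart in these pooled cells.

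No histone gene passed the test between the groups. With edgeR's quasi-likelihood test, 0 of 23 tested histone genes had an adjusted p under 0.05, as did 0.0% of all genes tested, and 1 had an unadjusted p under 0.05, where 2.64% of all genes did. DESeq2 gave 0 histone genes at the adjusted threshold, where 0.397% of all genes passed, and 4 at the unadjusted one, where 3.85% of these genes did. In limma on log2(TPM + 1) the counts were 0, as over all genes (0.0%), and 3, where 4.55% of all genes passed. The other 2 genes, *H3f4* and *H3f3a-ps1*, did not pass the filter on low reads. The groups did not overlap in 3 genes that were lower after AAV-mVEGF-C (*H1f1*, *Hist1h4n* and *H3f3a-ps2*), against 16.7% of all genes tested, and in 1 that was higher (*H3f3c*), against 15.4%.

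For the summed share, the difference within the AAV-CTRL group was larger than that between the group means. AAV-CTRL 1 was the highest of the 4 libraries in 19 of the 23 tested genes, against 27.9% of all genes tested, and exceeded 1.5 times the highest other library in 10 of 23, against 5.57%. The log2 fold change was below 0 in 19 of 23 genes, against 49.6% of all genes tested, and its median was -0.36, against 0.00 over all genes. Without AAV-CTRL 1 the log2 fold change was below 0 in 7 of 23 and the median was 0.05. Without AAV-CTRL 2 the median was -0.67 and 9 of the 23 passed the threshold, 5 of them the linker cluster genes, while 9.08% of all genes tested passed.

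**Figure D1:**
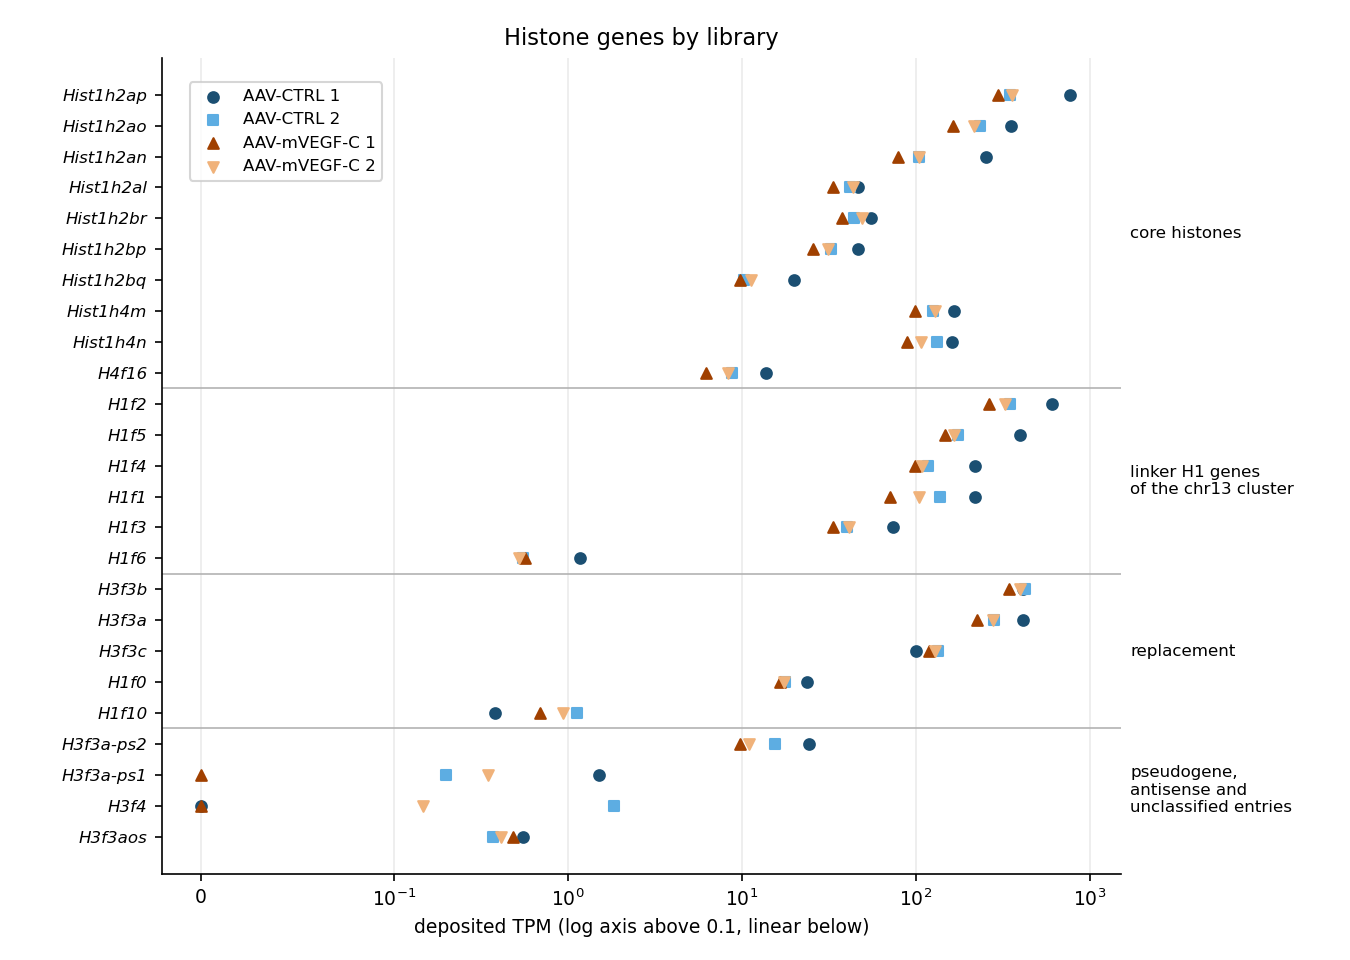
Deposited TPM of the 25 histone genes in each of the 4 libraries; the horizontal axis is logarithmic above 0.1 and linear below, each symbol is 1 library, and grey lines part core, linker, replacement and remaining genes. AAV-CTRL 1 (dark circles) lies to the right of the other 3 libraries for the linker genes and most H2A genes, and inside or near their range for *H3f3b* and *Hist1h2al*.

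The linker histone genes of the chromosome 13 cluster had more reads than the Hist-symbol or the replacement genes in every library. They took 0.294%, 0.159%, 0.142% and 0.163% of the reads (AAV-CTRL 1 and 2, AAV-mVEGF-C 1 and 2), that is 0.226% ± 0.0954 and 0.152% ± 0.0147 (SD, n = 2). AAV-CTRL 1 was at 1.85 times AAV-CTRL 2, while AAV-CTRL 2 lay between the AAV-mVEGF-C libraries. All 5 genes had log2 fold changes below 0, with a median of -0.57, and with AAV-CTRL 1 left out the median was 0.02 and 2 of 5 were below 0.

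*H1f2* (chr13:23738808-23740367), which encodes the linker histone H1.2, had 1223, 699, 605 and 716 CPM, the most of the 25 histone genes in AAV-CTRL 1, while *H3f3b* was higher in the other 3 libraries. Its log2 fold change was -0.56 (SE 0.31; adjusted p = 0.999, edgeR), and -0.03 without AAV-CTRL 1. AAV-CTRL 1 was high, and AAV-CTRL 2 lay between the AAV-mVEGF-C libraries.

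*H1f5* (chr13:21779883-21780625) encodes H1.5. It had 294, 134, 131 and 138 CPM, the largest ratio of AAV-CTRL 1 to AAV-CTRL 2 in the cluster (2.20). Its log2 fold change was -0.69 (SE 0.38), and 0.05 without AAV-CTRL 1. No stretch of 100 bases of this gene occurs in another M21 transcript and its reads were whole numbers in every library.

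*H1f1* (chr13:23763666-23764406), the gene of H1.1, was the exception among the linker genes. It had 167, 107, 64.2 and 89.2 CPM, so both AAV-CTRL libraries lay above both AAV-mVEGF-C libraries, as they did in 16.7% of all genes tested. Its log2 fold change was -0.85 (SE 0.30), the lowest of all 23 tested histone genes, with an unadjusted edgeR p of 0.0298 and an adjusted p of 0.999. Without AAV-CTRL 1 it was -0.43 and without AAV-CTRL 2 it was -1.18. *H1f1* also shared no 100-base stretch with other transcripts.

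*H1f3* and *H1f4*, the genes of H1.3 and H1.4, followed *H1f2*. *H1f3* had 699, 356, 338 and 391 CPM and *H1f4* had 553, 292, 283 and 294, with log2 fold changes of -0.55 (SE 0.35) and -0.57 (SE 0.33), which became 0.08 and 0.02 without AAV-CTRL 1. By TPM the order of the cluster was *H1f2* (mean over libraries 385), *H1f5* (221), *H1f4* (136), *H1f1* (133) and *H1f3* (47.2). By reads *H1f3* was second. Its M21 model of 7425 bases reaches far past the stem-loop, but whether its TPM was divided by that length is not known. *H1f6*, the testis linker gene, was at 0.523 to 1.17 TPM.

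**Figure D2:**
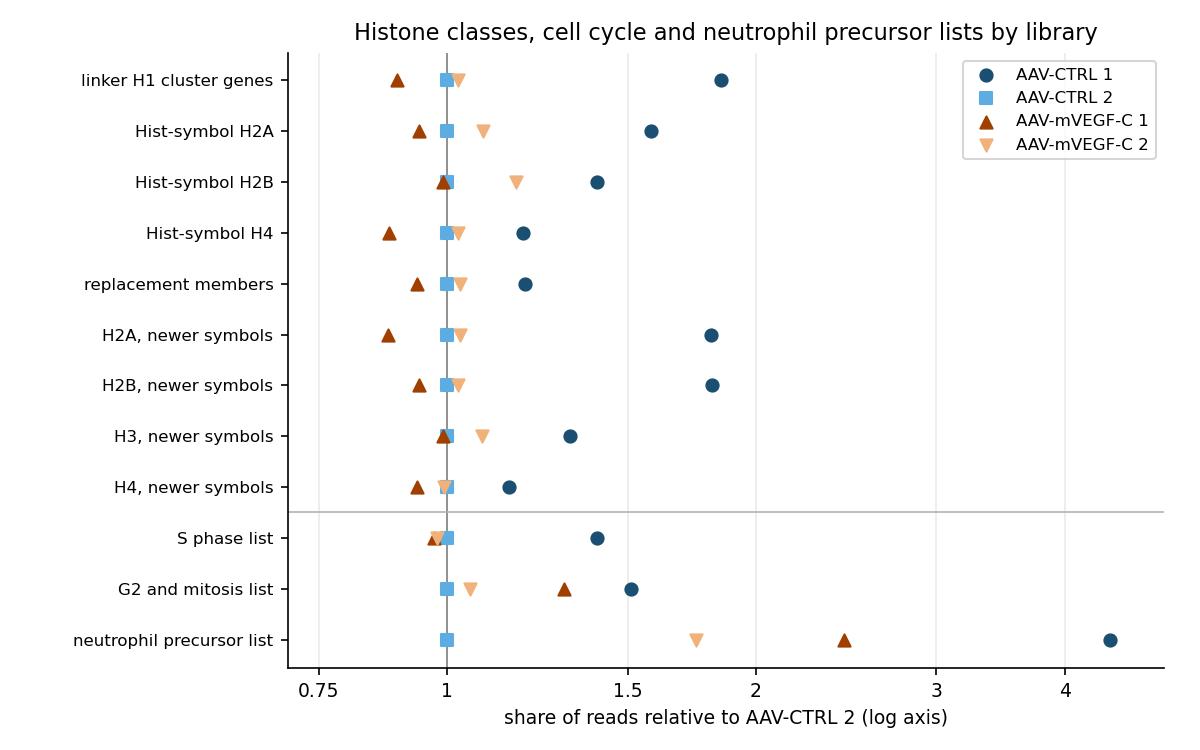
Share of reads of histone classes (above the grey line) and of 3 gene lists (below) in each library, divided by the share in AAV-CTRL 2, on a logarithmic axis; each symbol is 1 library. For linker, H2A and H2B genes AAV-CTRL 1 lies at 1.40 to 1.85, for both sets of H4 genes at 1.15 and 1.19, and the AAV-mVEGF-C libraries lie between 0.876 and 1.17 in every histone class.

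The 9 core genes with a Hist symbol took 0.0759%, 0.0516%, 0.0484% and 0.0562% of the reads, that is 0.0638% ± 0.0172 and 0.0523% ± 0.00550 (SD, n = 2). AAV-CTRL 1 was again high, and AAV-CTRL 2 lay between the AAV-mVEGF-C libraries. Their median log2 fold change was -0.32, with 8 of 9 below 0, and it was 0.13 with 2 of 9 below 0 without AAV-CTRL 1.

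Histone types differed in how far AAV-CTRL 1 stood out. The 4 H2A genes took 0.0506% in AAV-CTRL 1 and 0.0301% to 0.0347% in the others. The 3 H2B genes took 0.0134% against 0.00949% to 0.0112%, and the 2 H4 genes 0.0119% against 0.00883% to 0.0103%. The ratio of AAV-CTRL 1 to AAV-CTRL 2 was 1.58 for H2A, 1.40 for H2B and 1.19 for H4, and 1.85 for the linker cluster.

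The genes under newer symbols, which are other genes but often near-identical in sequence and read in the same libraries, also differed by type. Their ratios of AAV-CTRL 1 to AAV-CTRL 2 were 1.81 for 15 H2A genes, 1.81 for 14 H2B genes, 1.32 for 11 H3 genes and 1.15 for 10 H4 genes. H4 was thus the type with the smallest summed difference in both sets, although *H4f16*, which is in neither, had a ratio of 1.64. With 1 library on each side of these ratios, they describe 2 libraries, and differences between types were not tested.

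*Hist1h2ap* (chr13:21833026-21833507) had the highest mean TPM of the 25 histone genes (443), with 773 and 347 in the AAV-CTRL libraries and 297 and 356 in the AAV-mVEGF-C libraries. AAV-CTRL 1 was more than 2 times the others, which lay close together, and in those 3 libraries *H3f3b* had the higher TPM (426, 345 and 395). In CPM it had 298, 166, 168 and 186, and the log2 fold change was -0.41 (SE 0.31; adjusted p = 0.999, edgeR), or 0.14 without AAV-CTRL 1.

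The H2A gene *Hist1h2an* behaved alike, with 63.0, 34.7, 31.5 and 38.0 CPM and a log2 fold change of -0.51 (SE 0.33), or 0.05 without AAV-CTRL 1. *Hist1h2ao* differed less between the controls, with 135, 108, 90.5 and 110 CPM, and its log2 fold change was -0.29 (SE 0.21), or -0.07 without AAV-CTRL 1, -0.48 without AAV-CTRL 2, -0.12 without AAV-mVEGF-C 1 and -0.47 without AAV-mVEGF-C 2. *Hist1h2al*, which M21 annotates as a processed pseudogene, did not share the pattern: it had 10.4, 11.2, 11.1 and 13.1 CPM and a log2 fold change of 0.17 (SE 0.24). It was 0.32 without AAV-mVEGF-C 1 and 0.0021 without AAV-mVEGF-C 2, and on the log2(TPM + 1) scale it was -0.20.

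Among the H2B genes, *Hist1h2bq* had 29.5, 15.5, 16.9 and 18.1 CPM, *Hist1h2bp* 23.0, 15.2, 14.5 and 15.7, and *Hist1h2br* 81.5, 65.0, 63.6 and 77.9. AAV-CTRL 1 was the highest library for all 3. The log2 fold changes were -0.38 (SE 0.35), -0.36 (SE 0.28) and -0.06 (SE 0.22), and without AAV-CTRL 1 they were 0.22, 0.04 and 0.17.

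The H4 genes with a Hist symbol differed little. *Hist1h4m* had 57.8, 46.6, 44.6 and 54.0 CPM, a log2 fold change of -0.09 (SE 0.22), and overlapping groups. That value was 0.13 without AAV-CTRL 1, -0.28 without AAV-CTRL 2, 0.08 without AAV-mVEGF-C 1 and -0.28 without AAV-mVEGF-C 2. *Hist1h4n* had 61.5, 53.9, 43.7 and 49.1, so both control libraries lay above both AAV-mVEGF-C libraries, with a log2 fold change of -0.32 (SE 0.19; adjusted p = 0.999, edgeR), or -0.17 without AAV-CTRL 1. *H4f16*, an H4 gene on chromosome 6 that shared 4.34% of its 100-base stretches with other transcripts, had 47.9, 29.2, 23.9 and 30.0 CPM, and its log2 fold change of -0.53 (SE 0.31) became -0.07 without AAV-CTRL 1.

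Pairs of H2A and H2B genes lie head to head in this cluster. *Hist1h2an* and *Hist1h2bp* were 242 bases apart, *Hist1h2ao* and *Hist1h2bq* 267 and *Hist1h2ap* and *Hist1h2br* 235, with the H2A and H2B gene of each pair on opposite strands. In all 3 pairs and all 4 libraries the H2A gene had the higher TPM. The ratio of H2A to H2B TPM was 5.47 in AAV-CTRL 1 and 3.05 to 3.36 in the others for the first pair, and 14.0 against 7.27 to 7.90 for the third. It was 17.7 in AAV-CTRL 1 and 16.9 to 22.5 in the others for the middle pair. The longest M21 models of *Hist1h2bq* and *Hist1h2br* measured 2015 and 2197 bases against 480 and 482 for their H2A partners. The lengths behind the deposited TPM are not given in the sources used here, so the size of these ratios is uncertain.

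Near-identical copies limit the values of single core genes. Of 8 of the 9 core genes with a Hist symbol, 34.7% to 94.6% of the 100-base stretches occur in at least 1 other M21 transcript, the exception being *Hist1h2al* with 19.2%. Of the read values of the 25 genes 66.0% had decimals, against 8.18% over the table, and 17 of the 25 genes had at least 1 such value. How the reads were divided among copies is not given in the sources used here, so the values of single core genes are uncertain, and reads may also be divided between the sums given for Hist-symbol and newer-symbol genes.

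The 5 replacement genes together were at 1.19 times AAV-CTRL 2 in AAV-CTRL 1, beside 1.19 and 1.15 for the H4 genes with Hist and newer symbols, and *H3f3b* had the most reads of them in every library. They took 0.132%, 0.111%, 0.104% and 0.114% of the reads, that is 0.121% ± 0.0151 and 0.109% ± 0.00743 (SD, n = 2). AAV-CTRL 1 was the highest library, and AAV-CTRL 2 lay between the AAV-mVEGF-C libraries. Their median log2 fold change was -0.12, and 0.04 without AAV-CTRL 1.

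*H3f3b* (chr11:116021912-116027962) and *H3f3a* (chr1:180800832-180813943) encode the same protein, H3.3. *H3f3b* had 810, 736, 677 and 750 CPM, with overlapping groups and a log2 fold change of -0.12 (SE 0.18, adjusted p = 0.999, edgeR). That value was 0.0034 without AAV-CTRL 1, -0.24 without AAV-CTRL 2, -0.0078 without AAV-mVEGF-C 1 and -0.24 without AAV-mVEGF-C 2. *H3f3a* had 419, 282, 263 and 296, with AAV-CTRL 1 high and a log2 fold change of -0.34 (SE 0.25), or 0.04 without AAV-CTRL 1. The ratio of AAV-CTRL 1 to AAV-CTRL 2 was 1.10 for *H3f3b* and 1.49 for *H3f3a*. The start of *H3f3a* overlaps *H3f3aos* on the opposite strand (1.32 to 2.00 CPM), and whether counting used the strand is not given in the sources used here.

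*H1f0*, the gene of H1.0, a linker histone typical of cells that have left the cycle, had 62.6, 46.9, 49.9 and 50.0 CPM. Its log2 fold change was -0.15 (SE 0.21), or 0.14 without AAV-CTRL 1. *H1f10* (H1fx in M21) was low, at 0.582, 2.04, 1.47 and 1.91 CPM, and was lowest in AAV-CTRL 1.

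*H3f3c* went the other way. It had 28.0, 40.9, 43.9 and 43.0 CPM, so AAV-CTRL 1 was low and both AAV-mVEGF-C libraries lay above both controls, with a log2 fold change of 0.34 (SE 0.20; adjusted p = 0.999, edgeR), or 0.13 without AAV-CTRL 1. In TPM its groups overlapped (101 and 134 against 118 and 129). M21 annotates it as a processed pseudogene, and 56.7% of its 100-base stretches occur in another transcript. The H3.3 pseudogene *H3f3a-ps2* had 6.76, 4.72, 3.63 and 3.66 CPM, *H3f3a-ps1* had 19.15, 2.01, 0 and 3.71 reads, and *H3f4* had 0, 23, 0 and 2 reads.

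**Figure D3:**
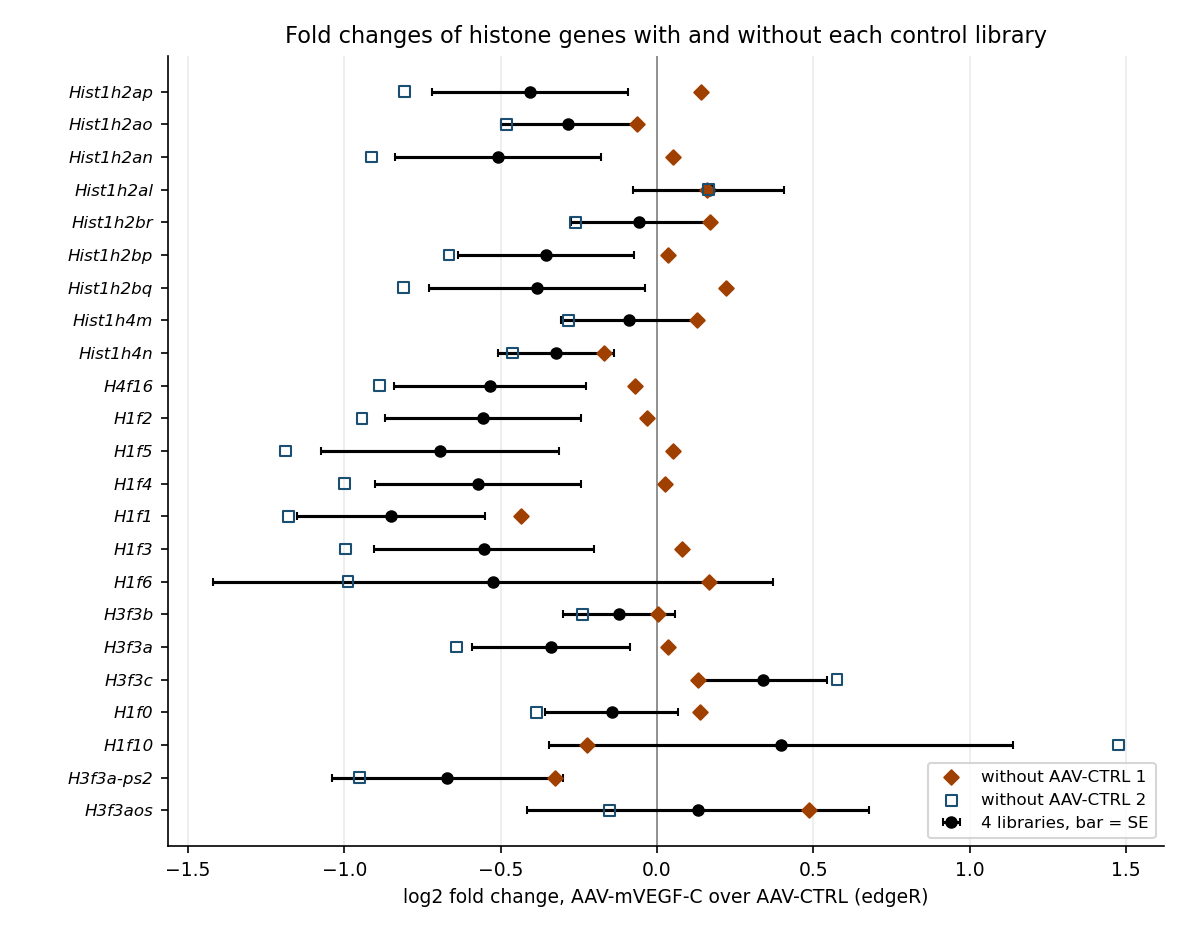
Log2 fold change of the 23 tested histone genes, AAV-mVEGF-C over AAV-CTRL, from edgeR with all 4 libraries (black circles, bars are SE), without AAV-CTRL 1 (diamonds) and without AAV-CTRL 2 (open squares). With all libraries 19 of 23 circles lie below 0, and without AAV-CTRL 1 only 7 of 23 diamonds do, *H1f1* being the farthest at -0.43.

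The comparison of replication-dependent with replacement histones depends on which symbols define the classes. By the symbols of the table, the 13 other matches took 0.431%, 0.273%, 0.248% and 0.280% of the reads, that is 0.352% ± 0.112 and 0.264% ± 0.0226 (SD, n = 2), with a median log2 fold change of -0.53, or 0.03 without AAV-CTRL 1. The ratio of Hist-symbol reads to the reads of the other matches was 0.176, 0.189, 0.195 and 0.201. Both control libraries lay below both AAV-mVEGF-C libraries, and the log2 ratio differed by 0.12 (AAV-mVEGF-C minus AAV-CTRL). In TPM the ratio was 0.756, 0.634, 0.630 and 0.665, so there the groups overlapped and the difference was -0.10. The 5 linker genes of the cluster took most of the reads of the other matches in every library, but less of their TPM (613 to 1514, of 1325 to 2481).

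By M21 symbol the 16 replication-dependent genes took 0.375%, 0.213%, 0.193% and 0.222% of the reads, that is 0.294% ± 0.114 and 0.207% ± 0.0206 (SD, n = 2). The ratio of their reads to those of the 5 replacement genes was 2.84 and 1.93 in the AAV-CTRL libraries and 1.86 and 1.95 in the AAV-mVEGF-C libraries. AAV-CTRL 1 stood alone, and AAV-CTRL 2 lay between the AAV-mVEGF-C libraries. In TPM the ratios were 3.58, 2.20, 2.06 and 2.20. The difference of the log2 ratio between the groups was -0.30, of the opposite sign to that by the symbols of the table, and no p was computed for it.

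The genes under newer symbols gave the same picture. The 50 replication-dependent ones took 0.634%, 0.395%, 0.365% and 0.409% of the reads, and the 7 replacement ones, among them the H2A variant genes *H2az1*, *H2az2*, *H2ax* and *Macroh2a1*, took 0.0634%, 0.0511%, 0.0517% and 0.0521%. The ratio was 10.0, 7.73, 7.05 and 7.85. Of the 50, 0 had an adjusted p under 0.05 in edgeR and 1 an unadjusted p under 0.05 (*H2aw*), against 0.0% and 2.64% of all genes tested. Of the same 50, 44 had a log2 fold change below 0, against 49.6% of all genes tested, and the median was -0.29, or 0.01 without AAV-CTRL 1. *H2ax*, whose mRNA exists in a stem-loop and a polyadenylated form, had 134, 102, 93.0 and 94.2 CPM, and *H2az1*, the gene of H2A.Z, had 114, 92.4, 87.4 and 98.4. Their log2 fold changes were -0.34 (SE 0.20) and -0.16 (SE 0.20), or -0.08 and 0.05 without AAV-CTRL 1. Those of *H2az2* and *Macroh2a1* were -0.30 (SE 0.26) and -0.02 (SE 0.18), or 0.08 and 0.16 without it.

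**Figure D4:**
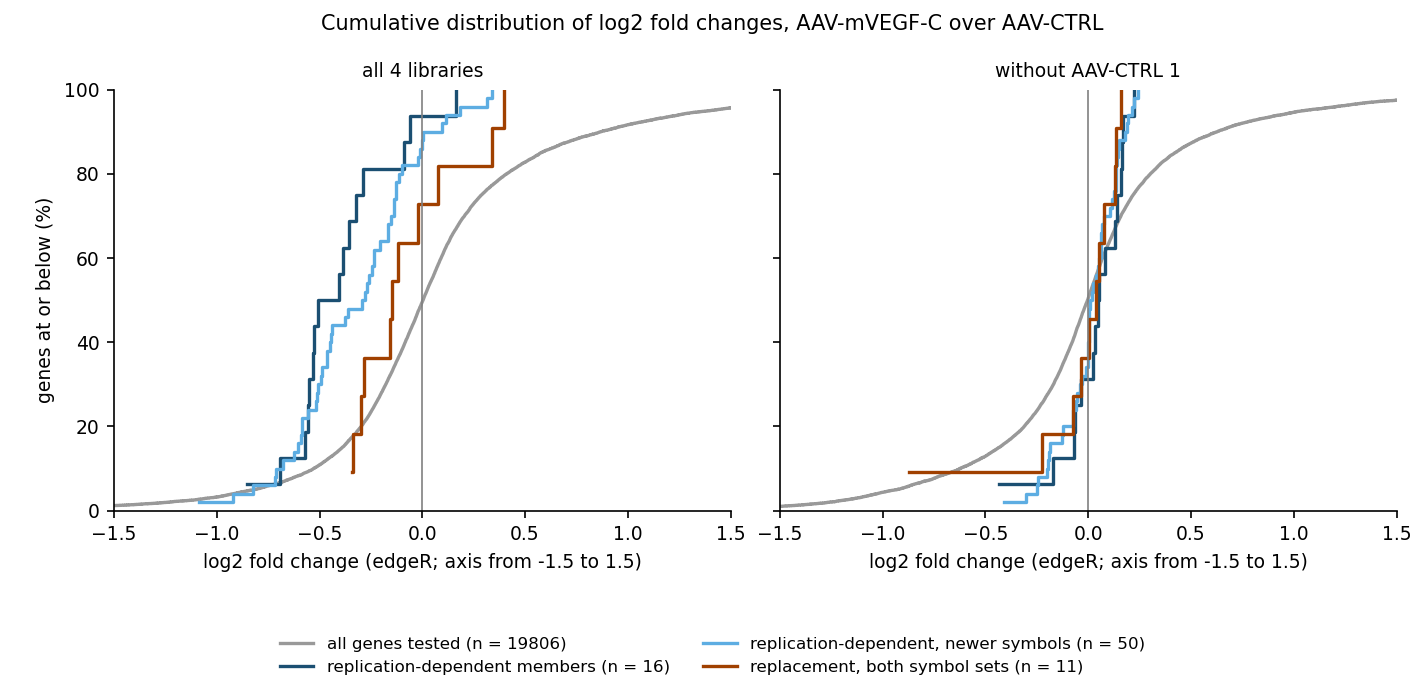
Percentage of genes at or below each log2 fold change (AAV-mVEGF-C over AAV-CTRL) for replication-dependent members, replication-dependent genes under newer symbols, replacement genes and all genes tested, with all 4 libraries (left) and without AAV-CTRL 1 (right); the horizontal axes run from -1.5 to 1.5. On the left 93.8% of the replication-dependent members lie below 0 against 49.6% of all genes, and on the right 31.3% against 50.4%.

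Other genes of the histone mRNA cycle were read from lists. Of 13 genes of histone pre-mRNA processing and transcript turnover, 0 had an adjusted and 0 an unadjusted p under 0.05 in edgeR, against 0.0% and 2.64% of all genes tested. The log2 fold change was below 0 in 9 of the 13, against 49.6%, and the median was -0.14. Without AAV-CTRL 1, 10 of 13 were below 0 and the median was -0.09. In 6 of the 13 the groups did not overlap and AAV-mVEGF-C was lower, against 16.7% of all genes tested. *Slbp*, which encodes the stem-loop binding protein, had 61.8, 65.6, 61.6 and 53.8 CPM, with both controls above both AAV-mVEGF-C libraries and a log2 fold change of -0.15 (SE 0.15). It was not high in AAV-CTRL 1. *Npat*, which encodes the coactivator of histone gene transcription, was at -0.27 (SE 0.22). *Casp8ap2*, which acts in histone mRNA 3′ end formation, was at 0.11 (SE 0.15), and *Lsm10* and *Lsm11*, parts of the U7 snRNP that cleaves histone pre-mRNA, were at -0.36 (SE 0.35) and 0.20 (SE 0.36). Of 26 histone chaperone and deposition genes, 0 passed at either threshold, against 0.0% and 2.64% of all genes tested. Their median was -0.14, or 0.03 without AAV-CTRL 1. The groups did not overlap in 10 of the 26 with AAV-mVEGF-C lower, against 16.7% of all genes tested, and in 6 with it higher, against 15.4%.

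Cell cycle genes and markers of neutrophil precursors stood high in the same library as the histone genes. The 36 S phase genes summed to 2002, 1430, 1390 and 1398 CPM, and AAV-CTRL 1 was the highest library in 28 of 36, against 27.9% of all genes tested. In 13 of the 36 both controls lay above both AAV-mVEGF-C libraries, against 16.7% of all genes tested. The 23 G2 and mitosis genes summed to 2362, 1561, 2030 and 1645, with AAV-CTRL 1 highest in 20 of 23 and the groups overlapping in all 23. In both lists 0 genes had an adjusted or an unadjusted p under 0.05 in edgeR, against 0.0% and 2.64% of all genes tested. The medians of -0.31 and -0.22 became 0.04 and 0.26 without AAV-CTRL 1. *Pcna*, the replication clamp, had a log2 fold change of -0.36 (SE 0.23), the proliferation marker *Mki67* 0.02 (SE 0.24), the topoisomerase gene *Top2a* -0.17 (SE 0.26) and the centromere histone gene *Cenpa* -0.21 (SE 0.26).

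The 5 neutrophil precursor markers (*Elane*, *Mpo*, *Prtn3*, *Ctsg* and *Ms4a3*) summed to 2977, 672, 1638 and 1177 CPM, with none at 0. AAV-CTRL 1 was the highest library for all 5, against 27.9% of all genes tested. AAV-mVEGF-C 1 was the second highest library for these markers and for the G2 and mitosis genes, but had the lowest share of histone reads. The mature neutrophil markers summed to 8672, 4528, 6710 and 7050 CPM. AAV-CTRL 1 was the highest library for 3 of 5 (*S100a8*, *S100a9* and *Mmp9*), against 27.9% of all genes tested. The part of these cells, and of the depth of AAV-CTRL 1, in its histone values was not tested.

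Markers of other cells did not follow the histone reads. Summed markers of B cell precursors (30.1, 86.1, 15.2 and 28.2 CPM, with *Vpreb1* and *Vpreb2* at 0 in AAV-CTRL 1), B cells (231, 598, 255 and 265), macrophages (1609, 2408, 1448 and 1979) and stromal cells (646, 1112, 378 and 556) were highest in AAV-CTRL 2. For B cell precursors and stromal cells both control sums also lay above both AAV-mVEGF-C sums. The groups did not overlap, with AAV-mVEGF-C lower, in 3 of 6 tested B cell precursor genes and 6 of 8 stromal genes, against 16.7% of all genes tested. Erythroid markers (121, 160, 30.4 and 51.0) were also higher in both controls than after AAV-mVEGF-C, with 7 of 8 log2 fold changes below 0, against 49.6% of all genes tested. In 7 of 8 the groups did not overlap and AAV-mVEGF-C was lower, against 16.7%. In edgeR 6 of 8 had an unadjusted p under 0.05, against 2.64%, and 0 an adjusted p under 0.05, against 0.0%. T cell markers (207, 225, 286 and 255) were higher after AAV-mVEGF-C. Endothelial markers (62.6, 78.1, 57.7 and 55.6) were low in every library, and both control sums lay above both AAV-mVEGF-C sums.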

How the data were processed

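Total RNA of 4 pooled libraries (SMARTer stranded kit for picogram amounts of total RNA, paired reads) was examined. The authors deposited estimated counts per gene, not normalized and with decimals, and TPM values of the same genes. The submitters' processing notes name FastQC, Trimmomatic, DRAGEN, Picard and mm10; counter and annotation are not given in the sources used here. Counts were rounded and fitted with edgeR 4.0.16 in R 4.3.3 (TMM, filterByExpr, quasi-likelihood test, 19806 genes, Benjamini-Hochberg over all of them); limma 3.58.1 and DESeq2 1.42.0 were alternatives. The SE is the log2 fold change divided by the square root of F. The fit was tested on simulated data. CPM values used all reads of a library, and Wilson intervals cover counting error only. The titles label the 2 libraries of a group as experiments 1 and 2, and p-values measure the spread between these libraries of pooled mice.

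Genes, promoters and transcripts come from GENCODE M21 (GRCm38) and RefSeq (GRCm38.p6); all 25 genes were matched by identifier, 23 with the same version. The members and lists were chosen with earlier results of these data known. Named genes were the Hist genes, the 8 other matches with the highest mean TPM, genes with an unadjusted p under 0.05, and fixed histone variant, histone mRNA and cell cycle genes. *H4f16*, *H1f6*, *H1f10*, *H3f4*, *H2aw*, the pseudogene entries and the cell type markers were named outside this rule, some after their values were seen.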

Additional observations from a re-analysis of the deposited data

How the results depend on the processing

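The count of histone genes with an adjusted p under 0.05 was 0 in edgeR with all libraries, with RLE size factors, in limma and in DESeq2. It was 1 (*H1f1*) without the filter on low reads and ranged from 0 to 9 when each library was left out in turn, the 9 arising without AAV-CTRL 2; the lone library left in a group is then assumed to vary like the others. The cause was not tested. Over all genes the count was 0 in edgeR, 77 in DESeq2, 268 without the filter, 212 without AAV-CTRL 1 and 1798 without AAV-CTRL 2. The median log2 fold change ranged from -0.48 to 0.13 for Hist-symbol genes and from -0.92 to 0.030 for the other matches, the highest value in each case being that without AAV-CTRL 1.

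The difference in the share of reads of the Hist-symbol genes (AAV-mVEGF-C minus AAV-CTRL, in percentage points) was -0.0115, and -0.0533 with TPM. It turned to 0.00067 without AAV-CTRL 1 and was -0.0236 without AAV-CTRL 2 and -0.0076 without AAV-mVEGF-C 1. It was -0.0865 with classes by M21 symbol and -0.214 over all histone genes of the table by M21 symbol, both chosen after seeing the data and covering more genes. For the other matches the difference was -0.0876, with -0.0086 and -0.167 without AAV-CTRL 1 and 2 in turn. The difference of the log2 ratio of Hist to other reads was 0.12 (0.06 without AAV-CTRL 1, 0.17 without AAV-CTRL 2), but -0.10 with TPM, -0.30 with classes by M21 symbol and -0.25 over all histone genes. A minimum of 40 reads, *H2afx* counted with the Hist genes, and leaving out pseudogene entries (added after seeing the data) moved no median, share or ratio beyond 1 SD. The setting meant to leave out the testis genes removed none, since it named them by Hist symbols that the table does not use. *H1f6* thus stayed among the other matches.

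Of the 18 named genes that the symbol pattern matched by the stated rule, 13 changed sign under some setting, 12 of them without AAV-CTRL 1. The named variant genes under newer symbols and the histone mRNA and cell cycle genes were not part of this tally. Over the left-out libraries the log2 fold change ranged from -0.81 to 0.14 for *Hist1h2ap*, -0.91 to 0.050 for *Hist1h2an*, -0.28 to 0.13 for *Hist1h4m*, -0.26 to 0.17 for *Hist1h2br*, -0.67 to 0.035 for *Hist1h2bp*, -0.81 to 0.22 for *Hist1h2bq*, -0.24 to 0.0034 for *H3f3b*, -0.64 to 0.036 for *H3f3a*, -1.19 to 0.051 for *H1f5*, -0.998 to 0.025 for *H1f4*, -0.996 to 0.082 for *H1f3* and -0.38 to 0.14 for *H1f0*. *Hist1h2al* was at -0.20 in limma with either pseudocount.

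In a fit whose replicate block was the experiment number, 0 histone genes and 11 of all genes passed, the median of Hist-symbol genes was -0.30 and the differences in share and ratio were the same. Deviations of same-numbered libraries correlated at -0.134 over genes, and the column names number the libraries differently, so the numbers are not shown to pair them. With the numbers crossed, 0 histone genes and 54 of all genes passed. With 2 libraries a group, *H1f1* did not pass at a log2 fold change of -0.85 with an SE of 0.30.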
